A study of Homo sapiens with 9 samples.

Results

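The secretoglobin genes SCGB1A1, SCGB3A2 and SCGB3A1 were examined for NKX2-1 and FOXA1 occupancy in lung adenocarcinoma cells, by chromatin immunoprecipitation and sequencing (ChIP-seq), which maps where a DNA-binding protein sits on chromatin. The members were the deposited peaks that overlapped a fixed window around each gene, chosen by position alone: chromosome 11 from 61890000 to 62000000 for SCGB1A1, chromosome 5 from 147180000 to 147300000 for SCGB3A2, and chromosome 5 from 179900000 to 180000000 for SCGB3A1, all in build hg18. In all, 16 of 125904 peaks from 5 peak lists met this rule. Of these, 3 lay in the SCGB1A1 window, 8 in the SCGB3A2 window and 5 in the SCGB3A1 window.

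NKX2-1 was precipitated from NCI-H3122, NCI-H1819 and NCI-H2087, lines grown in RPMI1640 with serum and described in the labels as carrying an amplification of the NKX2-1 gene, with an antibody from Bethyl Laboratories (BL4000). FOXA1 was precipitated from NCI-H3122 only, with an Abcam antibody (ab23738). The H3122 NKX2-1 group had 2 lists, named replicate 1 and replicate 2 in this text, and every other group had 1, so no comparison between lines has a replicate test. Nothing in the labels says that the H3122 pair came from separate cultures, and each line is a single tumour line with no NKX2-1-negative line beside it. The H3122 NKX2-1 lists were of very unequal length, 7469 peaks in replicate 1 against 48071 in replicate 2. H1819 had 13486 NKX2-1 peaks, H2087 had 14441, and the FOXA1 list had 42437. Sequencing depth is unknown, so the length of a list and the presence of a weak peak cannot be set against depth.

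Secretoglobins are small secreted proteins of mucosal epithelia. SCGB1A1, also called uteroglobin or club cell secretory protein, is the main secretory product of the club cells of the conducting airway. SCGB3A2 (UGRP1) is made by airway epithelium and is known as a target of NKX2-1 in mouse airway, while SCGB3A1 (HIN-1) is a secretory protein of the larger airways that is often silenced by promoter methylation in carcinomas. NKX2-1, also called TTF-1, is the homeodomain factor of lung and thyroid epithelium, and FOXA1 is a forkhead factor that can open chromatin for other factors in endodermal tissues. Gene expression was not measured in these files, so whether the 3 genes were active in any of the lines was not tested.

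No list held a peak over any of the 3 gene positions. The gene positions were known to the nearest 1 kb, at 61.943 Mb on chromosome 11 for SCGB1A1 and at 147.238 Mb and 179.950 Mb on chromosome 5 for SCGB3A2 and SCGB3A1. The genes themselves are short, at 4163, 3481 and 1395 bp in RefSeq on GRCh38.p14. Distances below run from the stated position to the nearest edge of a peak, with "above" for higher and "below" for lower coordinates. The closest NKX2-1 peak to any of the genes lay 6.1 kb from SCGB3A1, in H3122 replicate 2, and the closest FOXA1 peak lay 5.2 kb from the same gene. For SCGB3A2 the closest NKX2-1 peak lay 14.3 kb away, and for SCGB1A1 33.2 kb away, both in H1819.

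The RefSeq promoter table (GRCh38.p14, 250 bases before to 50 after the annotated start) held 2 of the 3 genes, SCGB3A2 and SCGB3A1, and their bases before the start are shown because they belong to genes whose stated positions no list covered. Capitals mark matches, on either strand, to the motifs searched, CTCAAG and CAAGTG for NKX2-1 and TGTTTAC and TATTTAC for FOXA1. The SCGB3A2 stretch begins at chromosome 5, 147878461, on the plus strand. The SCGB3A1 stretch is read from the minus strand of chromosome 5 and begins at 180591749.
SCGB3A2: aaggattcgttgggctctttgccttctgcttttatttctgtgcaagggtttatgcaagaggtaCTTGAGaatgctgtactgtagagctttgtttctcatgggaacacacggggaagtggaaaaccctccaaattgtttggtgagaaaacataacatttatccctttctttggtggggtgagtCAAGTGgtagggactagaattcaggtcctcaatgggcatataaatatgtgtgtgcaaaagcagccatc
SCGB3A1: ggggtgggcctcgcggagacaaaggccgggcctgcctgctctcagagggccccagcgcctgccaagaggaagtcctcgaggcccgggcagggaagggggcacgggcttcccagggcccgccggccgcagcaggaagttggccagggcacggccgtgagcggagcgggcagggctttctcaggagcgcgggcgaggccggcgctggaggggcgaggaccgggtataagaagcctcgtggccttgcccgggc

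The SCGB3A2 promoter held 1 match to CTCAAG, read on the opposite strand from base 64, and 2 matches to CAAGTG. The first CAAGTG began at base 183, and the second at base 264, past the part shown. Among all 35116 promoters of this length, 12.4% held CTCAAG, 11.5% held CAAGTG and 21.7% held either. At least 2 matches to CAAGTG were held by 0.797%, a cut-off equal to the count in SCGB3A2 itself. The SCGB3A1 promoter held none of the 4 motifs, and the SCGB3A2 promoter held neither FOXA1 motif; 5.97% of all promoters held either of them. The 2 promoters also differed in base composition, with a GC content of 43.3% and 2 CpG dinucleotides at SCGB3A2 and 75.3% and 32 at SCGB3A1. These letters are a description, not evidence of binding or of its absence.

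**Figure D1:**
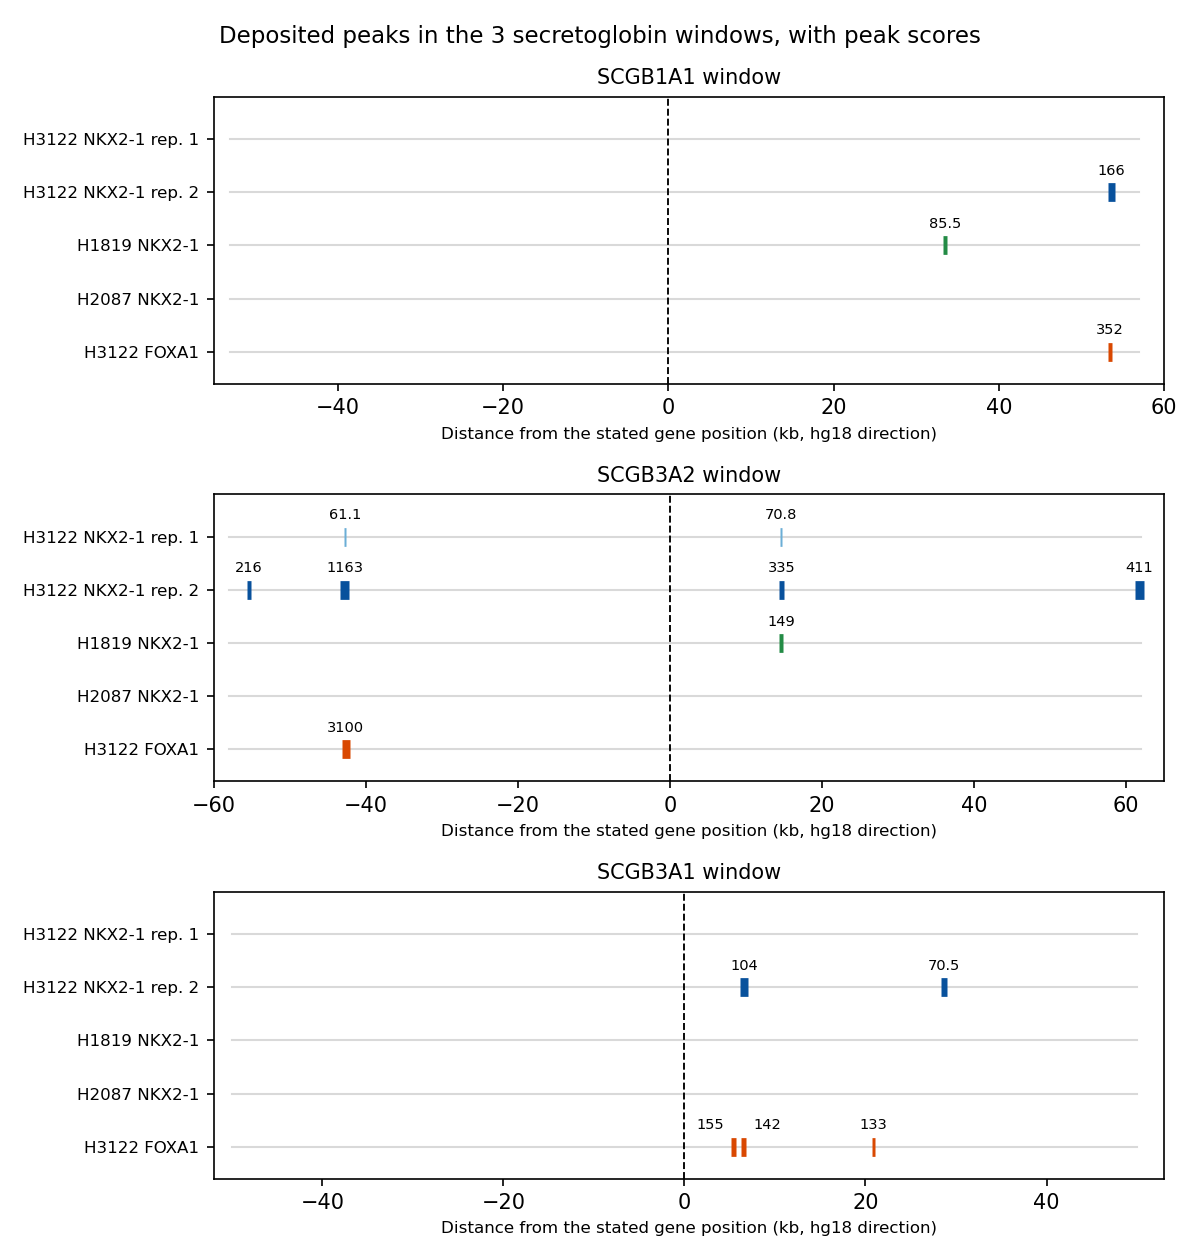
Deposited peaks in the 3 windows, by distance in kb from the stated gene position (dashed line) and by list; each bar is a peak drawn to scale and the number above it is the authors' score. The SCGB3A2 panel holds 8 of the 16 peaks, the row of H2087 is empty in every panel, and no bar crosses a dashed line.

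SCGB3A2 had the most NKX2-1 peaks of the 3 genes, in the longest of the 3 windows. They came from H3122 and H1819, as did those of SCGB1A1, and a site called in several lists was counted once for each. The 120 kb SCGB3A2 window contained 2 replicate 1 peaks, 4 replicate 2 peaks, 1 H1819 peak and 0 H2087 peaks, with 1 FOXA1 peak. Windows of this length tiled along the whole genome held at least 1 peak in 21.6%, 62.2%, 29.5% and 26.3% of cases for the NKX2-1 lists in that order, and in 60.7% for FOXA1. At least 2 replicate 1 peaks were found in 5.60% of such windows and at least 4 replicate 2 peaks in 19.0%. An empty window was the common case in H2087.

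The NKX2-1 region nearest to SCGB3A2 was also the only region in the 3 windows with peaks in more than 1 cell line. It lay 14.3 kb above the gene position, on chromosome 5 from 147252337 to 147253013. SCGB3A2 is on the plus strand in the promoter table, so this is the downstream side, where C5orf46 is the next protein-coding gene in the RefSeq order. Whether the region lies within C5orf46 was not determined. The H3122 replicate 1 peak had a score of 70.8, a value that 54.3% of the peaks in its list reached. The replicate 2 peak scored 335, in the highest 19.2% of its list, and the H1819 peak scored 149, in the highest 41.5%. H2087 had no peak there and neither had FOXA1 in H3122.

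The 3 calls at this region coincided closely. The replicate 1 peak, 226 bp wide, lay wholly within the 614 bp peak of replicate 2 and the 497 bp peak of H1819. The midpoint of the H1819 peak was 52 bp from that of replicate 1 and 121 bp from that of replicate 2. Of all 59685 merged NKX2-1 regions, 1.54% had this pattern of both H3122 replicates and H1819 without H2087, and 30.4% of those 920 regions also lacked FOXA1. Among the 9235 replicate 2 peaks scoring 335 or more, 40.2% overlapped replicate 1, 29.9% H1819, 33.5% H2087 and 77.1% FOXA1. Among these peaks the absence of FOXA1 was therefore the less usual state, whereas the absence of H2087 was the more usual one. The peak at this region was the lowest-scoring of them, and peaks of like score were not taken alone.

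The strongest peaks of any of the windows lay on the other side of SCGB3A2, 42.2 kb below the gene position, where NKX2-1 and FOXA1 met in H3122. The region ran from 147194661 to 147195800 on chromosome 5, on the upstream side, where SPINK1 is the next protein-coding gene. Its distance from SPINK1 was not determined, so which of the 2 genes it lies nearer to is not known here. The FOXA1 peak there scored 3100, a value at which scores pile up, and was tied with others among the 137 highest of 42429 FOXA1 peaks (0.323%). The NKX2-1 peak of replicate 2 scored 1163 and ranked 1176 of 48061, in the highest 2.45% of its list. Replicate 1 had a peak there too, with a score of only 61.1 that 74.6% of its list reached.

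NKX2-1 replicate 2 and FOXA1 overlapped over 949 bp at this upstream region, which was 83.2% of the 1140 bp NKX2-1 peak and 92.2% of the 1029 bp FOXA1 peak. Their midpoints were 136 bp apart, and the replicate 1 peak lay within both. Sharing of this kind was the usual state among peaks with these scores or higher ones. Of the 1176 replicate 2 peaks scoring 1163 or more, 90.4% overlapped a FOXA1 peak and 81.2% a replicate 1 peak, and 137 of 137 FOXA1 peaks scoring 3100 or more (100%) overlapped replicate 2. These strong replicate 2 peaks were found in H1819 in 44.2% and in H2087 in 40.4% of cases, and the upstream region was in neither.

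The replicates of H3122 placed these 2 regions of the SCGB3A2 window in opposite order by score. In replicate 2 the upstream region scored 1163 and the downstream region 335, while in replicate 1 they scored 61.1 and 70.8. Both replicate 1 scores were weak and close together, in a list running from 50.0 to 1246. Where a replicate 2 peak scoring 1163 or more had a replicate 1 peak, the median replicate 1 score was 135, and 6.81% of those 955 peaks scored 61.1 or less. For the downstream region the median was 86.1 over 3717 peaks, and 30.1% scored 70.8 or less. At each of the 2 regions the replicate 2 peak was the lowest-scoring of its own set. These shares therefore do not compare either region with replicate 2 peaks of like score. The order of the 2 regions by score did not hold across the H3122 pair, but in replicate 1 it rests on a small gap near the lowest score.

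**Figure D2:**
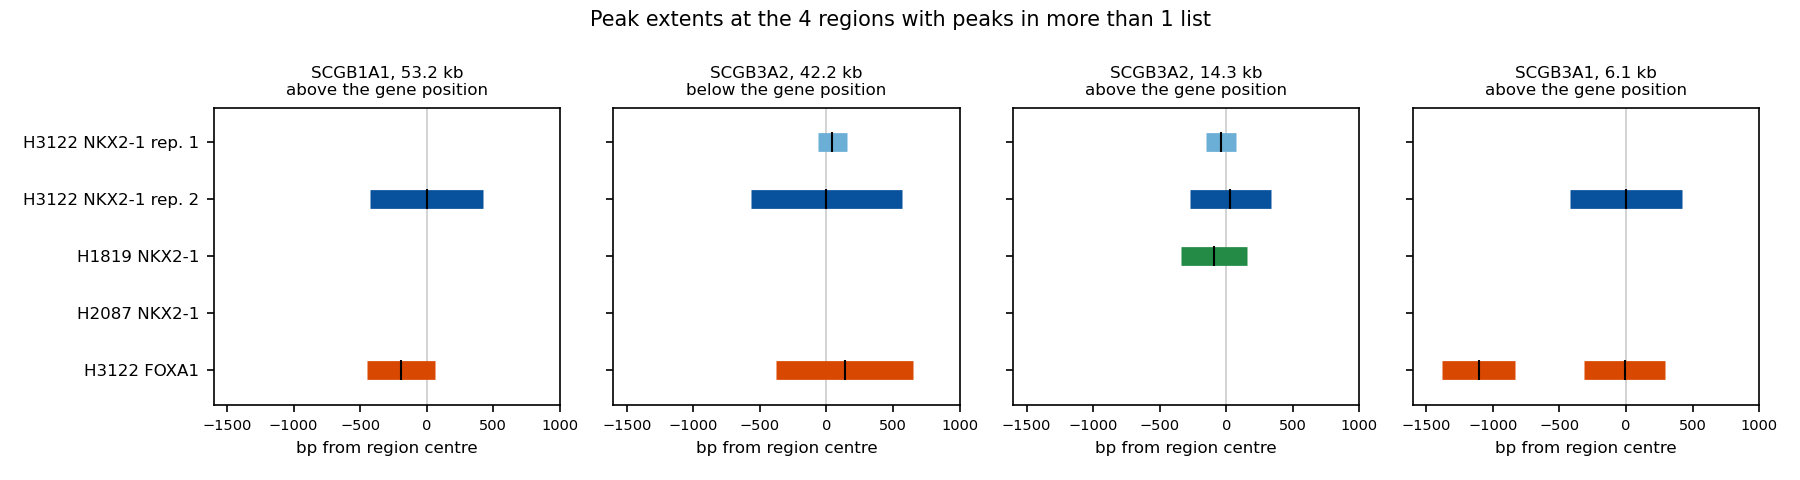
Peak extents by list at the 4 regions with peaks in more than 1 list, in bp from the centre of the merged NKX2-1 region, with midpoints as black ticks. NKX2-1 and FOXA1 bars overlap in the SCGB1A1 window, at the lower region of the SCGB3A2 window and in the SCGB3A1 window. The upper region of the SCGB3A2 window has bars from H3122 and H1819 with no FOXA1 bar.

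The other NKX2-1 peaks of the SCGB3A2 window were in H3122 replicate 2 alone and had no FOXA1 partner. A peak of 519 bp lay 55.1 kb below the gene position with a score of 216. A peak of 1275 bp began 61.1 kb above it with a score of 411, in the highest 14.6% of the list, and crossed the border of the window, with 889 bp inside. Just outside the lower border, replicate 2 and FOXA1 had overlapping peaks 6.2 and 6.0 kb away, with scores of 100 and 127.

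SCGB3A1 was the gene with the nearest peaks, and all of them came from H3122. Its 100 kb window held 2 NKX2-1 peaks in replicate 2 and 3 FOXA1 peaks, and 0 peaks in replicate 1, H1819 and H2087. Tiled windows of this length held at least 1 peak in 18.7% of cases for replicate 1, 57.9% for replicate 2, 26.2% for H1819, 23.7% for H2087 and 56.3% for FOXA1. At least 2 replicate 2 peaks were found in 37.9% of the windows and at least 3 FOXA1 peaks in 20.1%.

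The NKX2-1 peak closest to SCGB3A1 ran from 179956142 to 179956989 on chromosome 5, 6.1 kb above the gene position, with a score of 104 that 64.1% of the replicate 2 list reached. The gene is on the minus strand in the promoter table, so the peak lay on its upstream side, toward FLT4, a receptor of lymphatic endothelium and the next protein-coding gene in the RefSeq order. A FOXA1 peak of 604 bp lay wholly within it, with midpoints 11 bp apart and a score of 142. A second FOXA1 peak lay nearer to the gene, 5.2 kb above the position, with a score of 155 and no NKX2-1 partner. Their ranks were near the middle of the FOXA1 list, in which 48.9% and 45.1% of peaks scored as high. Farther out, a FOXA1 peak at 20.7 kb scored 133 and a replicate 2 NKX2-1 peak at 28.4 kb scored 70.5, and they did not overlap. That NKX2-1 peak was weak, with 88.1% of its list scoring as high.

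SCGB1A1, the defining club cell gene, had its nearest peak of any list at 33.2 kb, the largest such distance of the 3 genes. Its 110 kb window held 1 NKX2-1 peak in H3122 replicate 2, 1 in H1819 and 1 FOXA1 peak, and 0 in replicate 1 and H2087. Tiled windows of this length held at least 1 peak in 60.1% of cases for replicate 2, 28.0% for H1819, 58.6% for FOXA1, 20.2% for replicate 1 and 25.2% for H2087. The counts of 0 and 1 were thus ordinary values in every list. All 3 peaks lay above the gene position, on the side of AHNAK, a large scaffold protein gene that is the next protein-coding gene in the RefSeq order. Whether the peaks lie within AHNAK was not determined.

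The H1819 peak lay 33.2 kb above SCGB1A1, from 61976246 to 61976729 on chromosome 11, and its score of 85.5 was low, with 70.9% of the H1819 list as high. No other list had a peak there. The replicate 2 peak lay 53.2 kb above the gene position, from 61996182 to 61997029, with a score of 166 that 41.7% of the list reached. FOXA1 had a peak of 510 bp at the same place with a score of 352, in the highest 20.7% of its list. They shared 485 bp, and the FOXA1 midpoint was 194 bp from that of NKX2-1. Below the gene, the nearest replicate 2 peak was outside the window by 11.5 kb and scored 230, and a FOXA1 peak scoring 560 overlapped it.

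**Figure D3:**
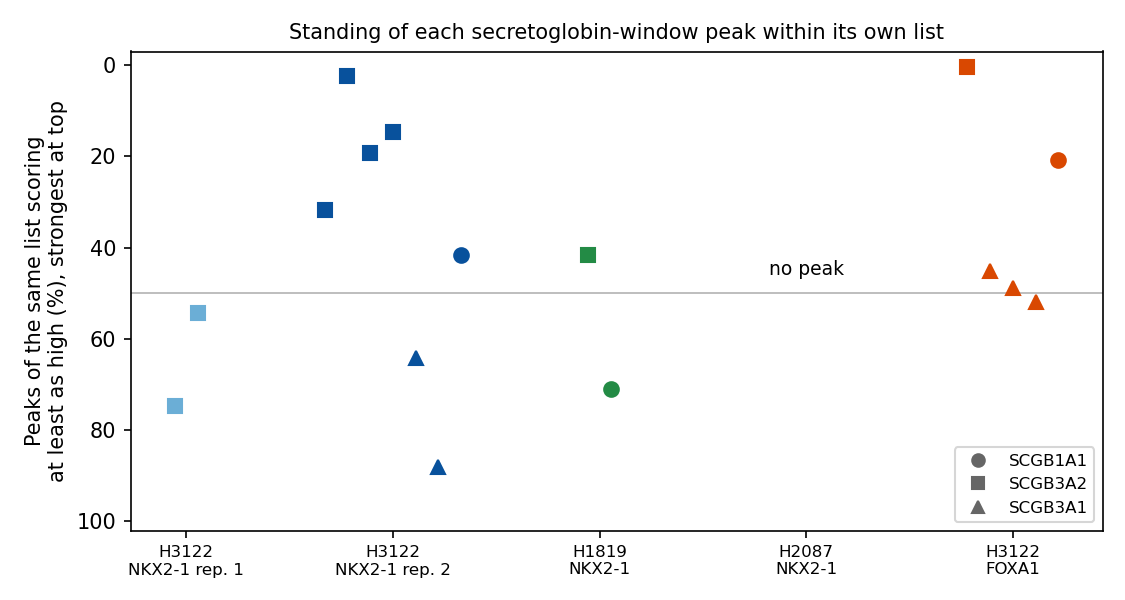
Standing of each of the 16 peaks within its own list, as the percent of the list's peaks scoring at least as high (axis inverted, strongest at the top); symbols give the gene and colours the list. The FOXA1 peak and the replicate 2 NKX2-1 peak below SCGB3A2 stand highest, at 0.323% and 2.45%, and the SCGB3A1 peaks lie near or under the middle of their lists.

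Across the 3 genes the NKX2-1 peaks merged into 8 regions, of which 5 were seen in H3122 replicate 2 alone, 1 in H1819 alone, 1 in both H3122 replicates and 1 in both H3122 replicates and H1819. Peaks in at least 2 lines were thus found in 1 of 8 regions, against 23.3% of all merged regions, and peaks in 3 lines in 0 of 8, against 4.61%. FOXA1 was present in 3 of the 7 regions with an H3122 NKX2-1 peak, 1 in each window, against 46.8% of the 49114 such regions in the genome. Both replicates were present in 2 of these 7, against 12.2%. Of the 5 FOXA1 peaks, 3 overlapped an NKX2-1 peak, against 56.5% of all FOXA1 peaks. With so few regions, none of these counts sets the secretoglobin genes apart from the genome.

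The distance to the nearest peak differed between lists at SCGB3A2, where it ran from 14.3 to 341.8 kb. The H3122 replicates and H1819 had peaks 14.5, 14.4 and 14.3 kb from it, all at the downstream region, and FOXA1 had its nearest 42.1 kb away. Among 308054 positions placed every 10 kb along the chromosomes, 6.34% were as near to a replicate 1 peak, 28.9% to a replicate 2 peak and 9.75% to an H1819 peak. For FOXA1, 51.8% of positions were as near. The nearest H2087 peak was 341.8 kb away, and the stretch around SCGB3A2 without an H2087 peak was 847 kb long. A distance at least that large held for 39.7% of positions, so it was not rare for this list.

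At SCGB3A1 the nearest peaks of replicate 2 and FOXA1, at 6.1 and 5.2 kb, were as near as those at 15.5% and 12.2% of positions. Those of replicate 1, H1819 and H2087 were 219.4, 195.4 and 122.9 kb away, and 51.9%, 58.6% and 39.6% of positions were as near. At SCGB1A1 the nearest peaks lay between 33.2 kb (H1819) and 81.4 kb (replicate 1), with H2087 at 78.1 kb. For H1819, 19.3% of positions were as near, for replicate 1 27.4% and for H2087 31.0%. Of the 3 genes, SCGB3A2 therefore had the nearest H1819 peak and the farthest H2087 peak.

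**Figure D4:**
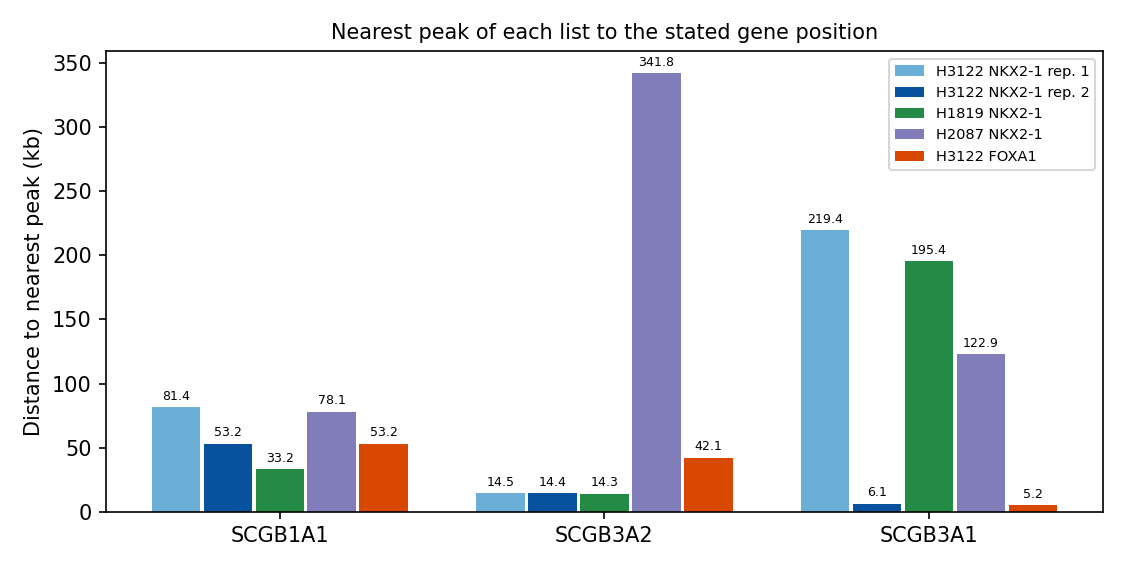
Distance in kb from each stated gene position to the nearest edge of the nearest peak of each list (1 list per bar, no error). The bars of H3122 and H1819 NKX2-1 at SCGB3A2 stand at 14.5, 14.4 and 14.3 kb, and the H2087 bar there is the tallest of the plot at 341.8 kb.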

How the data were processed

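Of the 9 samples, 5 precipitated libraries had a peak list; the 4 input libraries were not analysed here. Alignment used Bowtie and build hg18 and peak calling used MACS 1.4.0, per the submitters' processing notes, with 1 list for each library per the labels. Control libraries and calling thresholds were not given in the sources used here. Each deposited list gives a position and a score per peak, the authors' own value. Its scale is not stated, so scores were ranked within a list, and scores of different lists printed together are not compared in size. The exception was the alternative score minimum of 100, applied alike to every list. The median score was 73.3 in H3122 replicate 1 and 124 to 150 in the other lists, so this minimum bore hardest on replicate 1. The lowest deposited score was 50.0 in H3122 replicate 1 and 60.0 in the other lists.

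A peak was a member where it overlapped a window by at least 1 bp. NKX2-1 peaks of the 4 lists overlapping by at least 1 bp were merged into regions. The background came from windows of equal length tiled from the start of each chromosome, with assembly gaps and chromosome Y included (lengths from GenomeInfoDb 1.38.1, R 4.3.3), and from positions every 10 kb. Computation used Python 3.11.15, numpy 2.4.6, scipy 1.17.1 and matplotlib 3.10.9. Overlap code was tested on simulated lists. No test was run, since the groups have no replicates apart from the H3122 pair. The members and lists were chosen with earlier results of these data known. Every peak in the windows is reported; regions named in full are the nearest, shared and highest-scoring. No hg18 annotation or genome sequence was used, so whether a peak lies in an exon, an intron or a neighbouring gene is not given. Neighbouring genes and promoters come from RefSeq on GRCh38.p14. For lack of an hg18 annotation the other secretoglobin genes (SCGB1D1, SCGB1D2, SCGB1D4, SCGB2A1, SCGB2A2) were not analysed. Peaks on unplaced sequence were left out. Alternatives changed the score minimum, list length, window, overlap rule and H3122 lists.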

Additional observations from a re-analysis of the deposited data

How the results depend on the processing

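No paired analysis was possible because no result comes from a test and the groups with peak lists share no pair of samples in the labels. Counts were held unchanged within 1.5 times the reported count, and 101 of 147 alternatives for counts met this. That tally includes counts of 0 that stayed at 0, as for H2087 at SCGB3A2 and SCGB3A1. Most alternatives only removed peaks, so a count of 0 could not move under them. The tally is therefore not a measure of robustness. The added rule that took peaks by their midpoint, chosen after seeing the data, and the stricter overlap, 0.5 of the shorter peak, changed no count. The counts rest largely on H3122 replicate 2, and without replicate 1 no count moved. Without replicate 2 the merged regions fell to 1 at SCGB1A1, 2 at SCGB3A2 and 0 at SCGB3A1, with 0 FOXA1 partners at SCGB1A1 and SCGB3A1. At SCGB3A2, 1 region in at least 2 lines and 1 region with FOXA1 remained, as in the main counts. At scores of at least 100, 1 merged region was left at SCGB1A1 and 1 at SCGB3A1; H1819 had 0 peaks at SCGB1A1, replicate 1 had 0 at SCGB3A2 and replicate 2 had 1 at SCGB3A1. With the 7469 best peaks of each list, SCGB1A1 and SCGB3A1 held 0 peaks in every list, and replicate 2 had 2 at SCGB3A2. The region shared by H3122 and H1819 was then still counted in more than 1 line, through replicate 1. That list has 7469 peaks and was kept whole, so its peak could not be lost under this rule. The replicate 2 peak there, scoring 335, fell below the last score kept, 394.

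Within 25 kb of the gene position, 0 merged regions were left at SCGB1A1, 1 at SCGB3A2 and 1 at SCGB3A1. The peaks left were 1 each in replicate 1, replicate 2 and H1819 at SCGB3A2, and 1 in replicate 2 and 3 in FOXA1 at SCGB3A1; every other list had 0, so that FOXA1 had 0 at SCGB1A1 and SCGB3A2. Within 100 kb, the SCGB1A1 window held 8 regions, 2 of them in more than 1 line and 4 with FOXA1, from 1, 7, 2 and 1 NKX2-1 peaks and 6 FOXA1 peaks. SCGB3A2 held 10 regions, 1 of them in more than 1 line and 5 with FOXA1, from 2, 10, 1 and 0 NKX2-1 peaks and 6 FOXA1 peaks, and SCGB3A1 had 2 regions with FOXA1 and 6 FOXA1 peaks.

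The share of tiled windows with at least 1 peak was held unchanged by another rule, if it stayed inside a 95% interval around the main share. By that rule it moved in every list. The interval treats the windows as independent draws although they tile the whole genome, so even small shifts were counted as moved. In the order replicate 1, replicate 2, H1819, H2087 and FOXA1, at scores of at least 100 it was 5.90%, 50.6%, 19.9%, 20.0% and 48.0% for the SCGB1A1 length, 6.43%, 52.8%, 21.1%, 21.2% and 50.3% for SCGB3A2, and 5.44%, 48.3%, 18.4%, 18.7% and 45.7% for SCGB3A1. On chromosomes 5 and 11 alone it was 22.8%, 64.2%, 30.7%, 27.4% and 62.8%, then 24.6%, 66.7%, 32.6%, 28.7% and 65.3%, and 20.8%, 62.2%, 28.6%, 25.3% and 60.7%.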

Other observations

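Beyond the windows, the nearest NKX2-1 regions found in all 3 lines were at least 141 kb from the gene positions. Above SCGB1A1 such a region lay 141 kb away, on chromosome 11 from 62084433 to 62085164, where H1819 scored 411, H2087 scored 214 and H3122 replicate 2 scored 99.7, with no FOXA1 peak. A region in all 4 NKX2-1 lists lay 227 kb above the gene, from 62170355 to 62171340, where H2087 scored 419, H1819 scored 233 and H3122 scored 81.4 and 680 in replicates 1 and 2, again without FOXA1. For SCGB3A2 the nearest region in all 3 lines was 505 kb above the gene position, and for SCGB3A1 594 kb above. None of these distances was tested, and which genes lie at these regions was not determined here.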
